A study of Homo sapiens with 12 samples.

Results

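The response of Ewing sarcoma cells to the small molecule YK-4-279 was compared, gene by gene, with their response to depletion of the RNA helicase DHX9. The measure is a difference of effects on the log2(value + 1) scale: YK-4-279 minus DMSO (the drug arm), less siDHX9 minus scrambled (the knockdown arm). A value above 0 means that a gene stood higher after the drug than after the knockdown, each against its own control. All 12 libraries entered 1 fit, and 14225 genes were tested, out of 25787 table entries with a gene symbol and 78885 entries in all. A gene was called at an adjusted p under 0.05 (limma, Benjamini-Hochberg over all genes tested), and each called gene was then placed by its 2 arms: opposite directions, drug arm only, knockdown arm only, the same direction, or neither arm.

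The cells were TC-71, 1 established human Ewing sarcoma line, in 4 groups of 3 libraries. DMSO and YK-4-279 cells, labelled wild type, were treated for 16 h, the drug at 2 mM as labelled. Scrambled and siDHX9 cells were collected at 48 h, after reverse transfection with Lipofectamine RNAiMAX in a double pulse. The protocol speaks of siRNAs and the design text of shRNAs, whose sequences the sources used here do not give. Each arm has its own control, and the arms also differ in time and in transfection, so agent, time and transfection cannot be told apart in the difference. According to the labels each group has 3 biological replicates, and p-values measure the spread between these cultures.

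Ewing sarcoma is driven by a fusion of EWSR1 with an ETS factor gene, most often FLI1, whose product EWS-FLI1 acts as an aberrant transcription factor. DHX9, also called RNA helicase A, unwinds RNA and RNA-DNA hybrids, bridges transcription factors to RNA polymerase II and binds EWS-FLI1. YK-4-279 was described as a compound that blocks this binding, so the 2 arms approach the same partnership from its contact and from its amount, and the difference asks where the responses part.

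Library depth ran from 38.6 to 65.5 (in 1e6 reads). DHX9, whose entry is shared with its neighbour NPL, read 30287, 33422 and 34357 size-factor-normalised counts (the unit of every value below) in scrambled libraries and 19342, 21178 and 21304 in siDHX9 libraries, 37.0% lower on average without overlap (exact two-sided permutation p = 0.1, the smallest that 3 against 3 allows). It was 13.6% lower with YK-4-279 (29997 against 34724), a fall that did not pass in the drug arm (limma adjusted p = 0.0567). That fall did pass without scrambled replicate 3 (0.0462), siDHX9 replicate 2 (0.0409) or siDHX9 replicate 3 (0.0323). The difference was 0.45 ± 0.10 (SE, limma adjusted p = 0.011). The Ewing markers CD99 (mean 28091), NR0B1 (7161) and NKX2-2 (1239) were present in the cells, while the epithelial CDH1 (1.44), leukocyte CD3E (0), endothelial PECAM1 (0.0842) and muscle MYOG (0) were at or near 0. Among other markers of fibroblasts, epithelium and muscle, COL1A1 (1494), DCN (335), PDGFRB (322), KRT18 (270), MYH3 (90.0) and LUM (61.2) were present. The leukocyte marker CD14 stood at 42.15 to 56.42 in YK-4-279 libraries against at most 21.73 elsewhere. The most abundant entry, a ribosomal RNA, took 7.90 to 9.98% of reads with YK-4-279 and 1.76 to 5.44% in the other groups. The median SD between replicates was 0.117 in DMSO, 0.121 with YK-4-279, 0.17 in scrambled and 0.195 in siDHX9 libraries on the log2 scale. The part of ribosomal RNA or of this unequal spread in the results was not tested.

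Promoters are shown for 3 genes that stand for the main patterns below: EGR1, the opposite gene with the largest difference among those described by rule, CDC6, a replication gene with opposite responses, and CDK1, the mitotic kinase that moved with the drug alone. Each runs from 170 bases before to 30 bases from the RefSeq start (GRCh38.p14, + strand: EGR1 at chr5:138465309-138465508, CDC6 at chr17:40287709-40287908, CDK1 at chr10:60778161-60778360). Capitals mark matches on either strand to the CArG box bound by serum response factor, the CCAAT box, the cell cycle homology region (TTTGAA or TTCGAA) and the E2F site (TTTCGCGC or TTTGGCGC). None of the marked matches overlaps another.
EGR1: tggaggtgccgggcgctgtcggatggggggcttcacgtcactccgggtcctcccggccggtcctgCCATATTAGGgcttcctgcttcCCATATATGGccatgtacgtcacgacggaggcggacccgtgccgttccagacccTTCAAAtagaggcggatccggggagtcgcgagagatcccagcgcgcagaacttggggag
CDC6: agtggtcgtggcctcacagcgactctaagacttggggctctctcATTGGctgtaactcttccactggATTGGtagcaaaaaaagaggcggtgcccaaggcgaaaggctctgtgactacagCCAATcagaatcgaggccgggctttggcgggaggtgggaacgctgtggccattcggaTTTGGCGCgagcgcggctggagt
CDK1: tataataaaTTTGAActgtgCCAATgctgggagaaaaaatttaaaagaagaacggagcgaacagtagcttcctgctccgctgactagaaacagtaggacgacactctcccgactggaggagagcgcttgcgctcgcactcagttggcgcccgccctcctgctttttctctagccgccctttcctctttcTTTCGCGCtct

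In EGR1 CArG boxes begin 105 and 83 bases before the start, and a cell cycle homology match 29 bases before it. CDC6 holds CCAAT boxes 126, 103 and 50 bases before its start and an E2F site 7 bases after it. CDK1 holds a cell cycle homology region 161 bases and a CCAAT box 150 bases before its start, and an E2F site 19 bases after it. Over all 35116 promoters of 300 bases, 1.29% hold a CArG box, 34.6% a CCAAT box, 16.4% a cell cycle homology region and 1.15% an E2F site, so the CArG and E2F letters are rare and the CCAAT letters common. A match describes the letters only, and 76 of the 104 genes described by rule had a promoter in the RefSeq table.

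The drug and the knockdown differed in 1379 genes, 9.69% of those tested: 626 lay higher after the drug (4.4%) and 753 lower (5.29%), and 390 differed by at least 2-fold. Of these, 119 responded in opposite directions (0.837%), 515 in the drug arm only (3.62%), 584 in the knockdown arm only (4.11%), 29 in the same direction with unequal size (0.204%) and 132 passed in neither arm (0.928%). The drug arm taken alone called 1965 genes (13.8%), 1042 up (7.33%) and 923 down (6.49%), and the knockdown arm 2378 (16.7%), 1244 up (8.75%) and 1134 down (7.97%). Of the 418 genes called in both arms, 299 moved the same way. A call in 1 arm did not by itself mark a difference: of 1547 genes called with the drug and not with the knockdown, the difference of 1032 was not called, and the same held for 1376 of the 1960 called with the knockdown and not with the drug. Counts depended on single libraries. Leaving out any 1 DMSO or YK-4-279 library left 45 to 59 opposite genes, leaving out scrambled replicate 1 left 57 and siDHX9 replicate 1 left 65, while 179 were called without scrambled replicate 3 and 160 without siDHX9 replicate 2.

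**Figure D1:**
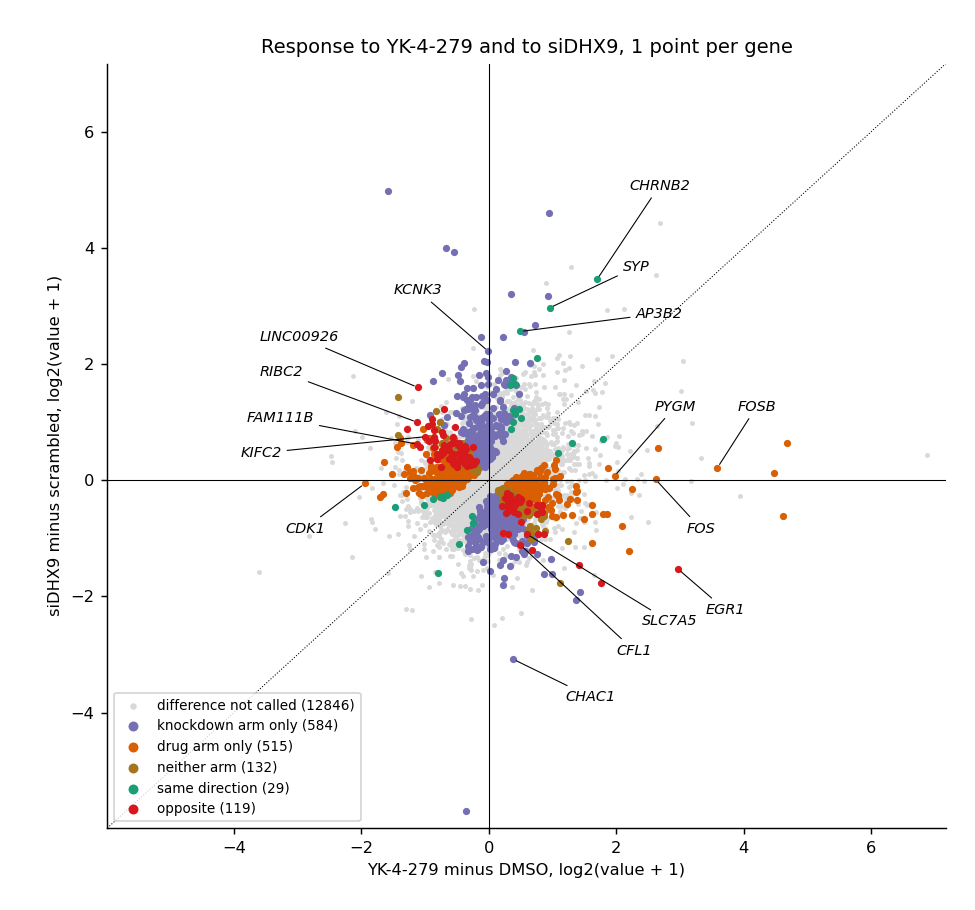
Each point is 1 of 14225 genes, with the log2(value + 1) change from DMSO to YK-4-279 on the x axis, the change from scrambled to siDHX9 on the y axis, and colours for the classes of the 1379 genes called in the difference; the dotted diagonal marks equal responses. The 119 opposite genes lie to the upper left and the lower right of the origin, and EGR1 lies far to the lower right, at 2.97 and -1.53.

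EGR1, CFL1 and SLC7A5 were among the 46 genes that rose with YK-4-279 and fell with siDHX9. EGR1 (chr5:137801169-137805189, hg19), an immediate early zinc finger transcription factor induced within minutes of growth factor or stress signals, read 166.4, 158.9 and 124.5 in DMSO, 1250, 1045 and 1239 with YK-4-279, 338.1, 262.6 and 126.7 in scrambled and 85.87, 64.03 and 82.14 in siDHX9 libraries. The drug libraries were the highest and the siDHX9 libraries the lowest of the 12, with no overlap with any control. EGR1 rose 7.84-fold with the drug and fell 2.9-fold with the knockdown, a difference of 4.51 ± 0.38 (SE; limma adjusted p = 4.07e-05). Scrambled replicates 1 and 2 stood above all DMSO libraries, and without these 2 libraries the difference was 3.69 (adjusted p = 0.000289) and the fall with siDHX9 no longer passed (adjusted p = 0.116). The opposite call was kept in all 12 fits that left out a single library.

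CFL1 (chr11:65622299-65626886), cofilin, which severs actin filaments, showed the same split at a far higher level. It read 31908, 35772 and 35574 in DMSO, 46342, 51035 and 48199 with YK-4-279, 33159, 37276 and 35805 in scrambled and 16003, 13200 and 20349 in siDHX9 libraries. Both sets of controls coincided (scrambled minus DMSO 0.04), the drug libraries lay above and the siDHX9 libraries below all of them. The difference was 1.62 ± 0.17 (limma adjusted p = 0.000149), from a 1.41-fold rise and a 2.18-fold fall. The rise with the drug lost its call without DMSO replicate 1 (adjusted p = 0.0702) or YK-4-279 replicate 2 (0.0691).

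SLC7A5, a subunit of the LAT1 carrier of large neutral amino acids and a target of the stress factor ATF4, read 1036, 854 and 972 in DMSO, 1695, 1224 and 1446 with YK-4-279, 2440, 2015 and 1531 in scrambled and 1090, 917.5 and 1096 in siDHX9 libraries. Here siDHX9 overlapped DMSO, and the scrambled control stood higher than DMSO by 1.04. The difference was 1.53 ± 0.22 (limma adjusted p = 0.00135). The rise with the drug did not pass without DMSO replicate 2 or 3 or YK-4-279 replicate 1 or 3 (adjusted p = 0.059 to 0.101).

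Other genes up with the drug and down with the knockdown were smaller in effect or less steady. PRPH, the intermediate filament protein peripherin, rose by 0.31 with YK-4-279 and fell by 0.93 on the log2 scale with siDHX9, and its drug call was lost without any 1 DMSO or YK-4-279 library, scrambled replicate 1 or siDHX9 replicate 1 (adjusted p = 0.0621 to 0.184); it overlaps RHEBL1. CLEC16A, a regulator of mitophagy, changed by 0.83 and -0.55, and LRP10, a receptor of the LDL receptor family that overlaps DAD1, by 0.77 and -0.92. PEX26, an anchor of the peroxisomal import machinery, changed by 0.68 and -1.20, with a drug call that ended without any 1 of the 6 DMSO and YK-4-279 libraries (adjusted p = 0.0515 to 0.144). PXN (0.46 and -0.58), the focal adhesion adaptor paxillin, and BRD2 (0.30 and -0.48), a reader of acetylated histones, were picked after their values were seen.

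The 73 genes that fell with YK-4-279 and rose with siDHX9 included replication genes, non-coding host genes of small nucleolar RNAs and cytoskeletal genes. RIBC2 (chr22:45809572-45828302), a protein of the inner wall of cilia microtubules, read 355.1, 342.6 and 378.8 in DMSO, 184.8, 137.7 and 171.3 with YK-4-279, 192.9, 222.9 and 267.4 in scrambled and 439.7, 395.2 and 532.8 in siDHX9 libraries. The drug libraries were the lowest and the siDHX9 libraries the highest of all, with scrambled below DMSO. RIBC2 fell 2.19-fold with the drug and rose 2-fold with the knockdown (difference -2.13 ± 0.22, limma adjusted p = 0.000149).

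FAM111B (chr11:58874655-58894886), a serine protease expressed in S phase, read 3827, 3754 and 3820 in DMSO, 1621, 1722 and 1908 with YK-4-279, 1797, 1998 and 2984 in scrambled and 3458, 3653 and 3107 in siDHX9 libraries. Scrambled replicates 1 and 2 lay close to the drug libraries, and all siDHX9 libraries lay between scrambled and DMSO. The difference was -1.75 ± 0.20 (limma adjusted p = 0.000255). Without scrambled replicate 1 the rise with siDHX9 missed the threshold (adjusted p = 0.0543).

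CDC6 (chr17:38444131-38459413), the licensing factor that loads the MCM helicase onto replication origins, read 4644, 4503 and 4494 in DMSO, 2539, 2584 and 2657 with YK-4-279, 3142, 3857 and 4078 in scrambled and 4298, 4871 and 5018 in siDHX9 libraries. The drug libraries were the lowest and the scrambled libraries lay between them and DMSO without overlap, while siDHX9 overlapped DMSO. CDC6 fell 1.75-fold with the drug, and its 1.29-fold rise with siDHX9 lost its call without scrambled replicate 1 (adjusted p = 0.0805) or siDHX9 replicate 3 (0.0678). The difference itself was -1.17 ± 0.13 (limma adjusted p = 0.000213).

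SNHG12, a non-coding host gene of small nucleolar RNAs that overlaps TRNAU1AP, read 5110, 4612 and 4994 in DMSO, 2290, 2466 and 2231 with YK-4-279, 2156, 2566 and 3323 in scrambled and 3688, 3848 and 4194 in siDHX9 libraries. Drug and scrambled libraries overlapped at the low end, and siDHX9 stood between them and DMSO. It fell 2.11-fold with the drug and rose 1.48-fold with the knockdown. Relative to DMSO the mean of the list of host genes of small nucleolar RNAs was -0.26 in YK-4-279, -0.35 in scrambled and -0.12 in siDHX9 cells. The list as a whole thus rose with siDHX9 from a scrambled control below DMSO, and stayed below DMSO. Across the list, 9 of 16 members were called lower in the difference (56.25%, against 5.29% of all genes) and none higher. The median was -0.42, against 0.03 over all genes. SNHG12, SNHG8 (-0.43 and 0.35) and the entry of SNHG10 with SCARNA13 (-0.62 and 0.37) were opposite, SNHG15, SNHG7, SNHG5 and ZFAS1 rose with the knockdown only, and GAS5 and SNHG1 fell with the drug only. The count was 4 without YK-4-279 replicate 1 and 5 without DMSO replicate 3, and SNHG12, SNHG8, SNHG15 and SNHG10 were the 4 called in each of the 12 fits without a library.

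KIFC2, a kinesin motor of neurons, changed by -0.99 and 0.75 (difference -1.74 ± 0.15, limma adjusted p = 4.06e-05), and its values ranged over 1107 to 1222 (DMSO), 545 to 625.8 (YK-4-279), 558.6 to 655.6 (scrambled) and 932.7 to 1182 (siDHX9). Its scrambled and drug libraries overlapped, as did its siDHX9 and DMSO libraries. LINC00926, a long non-coding RNA, changed by -1.12 and 1.60: siDHX9 libraries (161 to 242.1) lay above all others, YK-4-279 libraries (35.26 to 54.29) below all others. C19orf57, a meiotic recombination factor that overlaps CC2D1A, changed by -0.70 and 1.23, and its fall lost its call without DMSO replicate 1 or 3 or YK-4-279 replicate 1 or 3 (adjusted p = 0.059 to 0.0709). SNORD88B, a small nucleolar RNA inside C19orf48 and so of uncertain count, changed by -0.88 and 0.96.

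All 119 opposite genes kept the call of the difference in each of the 12 fits that left out a library, but only 21 kept the opposite class in each: 4 that were up with the drug (EGR1, CLEC16A, LRP10 and PXN) and 17 that were down, RIBC2, KIFC2, LINC00926, SNHG12 and SNHG8 among them. AHNAK (-0.39 and 0.47), a giant scaffold protein beneath the plasma membrane, and GSTA4 (-0.54 and 0.34), a glutathione transferase for lipid peroxidation products, belonged to the same 17 and were picked after their values were seen.

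**Figure D2:**
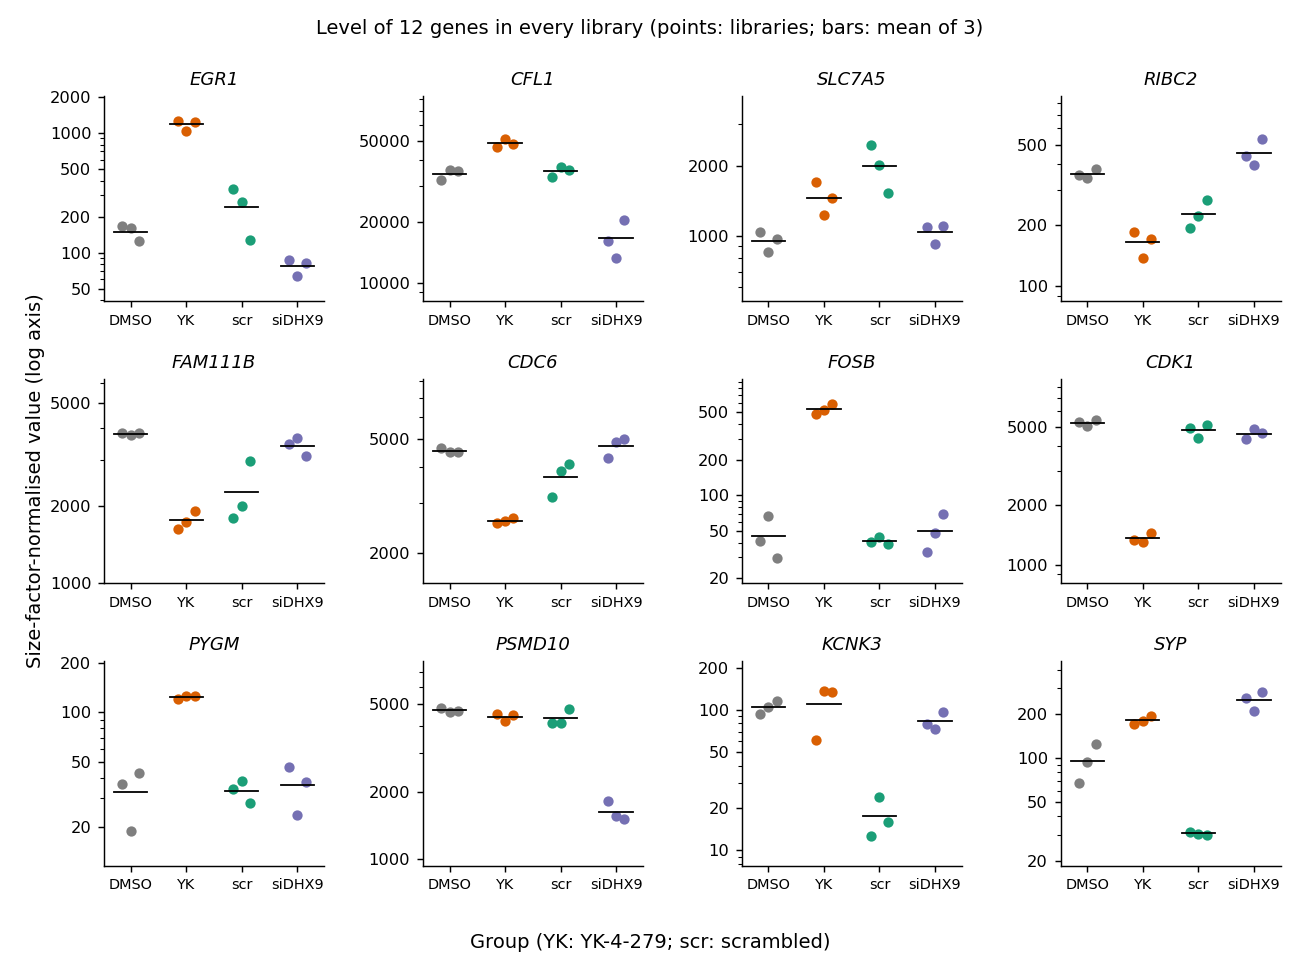
Size-factor-normalised values (log axis) of 12 genes in every library, with points for libraries and bars for the mean of 3; the groups are DMSO, YK-4-279 (YK), scrambled (scr) and siDHX9. EGR1 and RIBC2 have drug and siDHX9 libraries on opposite sides of all 6 controls, SLC7A5 has siDHX9 at the DMSO level below a raised scrambled control, FOSB and CDK1 move with the drug alone, and in KCNK3 the scrambled libraries stand apart.

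The opposite calls carried a shift between the controls. With DMSO as the common base, genes up with the drug and down with the knockdown had medians of 0.44 in YK-4-279, 0.43 in scrambled and 0.03 in siDHX9 cells; genes with the reverse pattern had -0.54, -0.44 and 0.05. In 111 of the 119 opposite genes scrambled lay on the drug's side of DMSO, and in 79 of these that shift itself passed the test (scrambled minus DMSO called 2692 genes, 18.9% of all, 9.7% up and 9.22% down). The contrasts share the DMSO and scrambled libraries, so these values are not independent of one another. In 9 of the 46 and 17 of the 73 opposite genes the YK-4-279 and siDHX9 libraries lay on opposite sides of all 6 control libraries, as did 117 genes (0.822%) of all tested. Because the opposite class was chosen on these same libraries, its share follows in part from that choice. EGR1, CFL1, PRPH, BRD2 and PTTG1 were among the 9, and RIBC2, LINC00926, GSTA4, AHNAK and the stress kinase kinase MAP2K6 (-0.51 and 0.25) among the 17; MAP2K6 too was picked after its values were seen. Without scrambled replicates 1 and 2, CFL1 and KIFC2 were still called opposite, whereas EGR1, SLC7A5, PEX26, RIBC2, FAM111B, CDC6, SNHG12, SNHG8 and LINC00926 were called in the drug arm only.

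**Figure D3:**
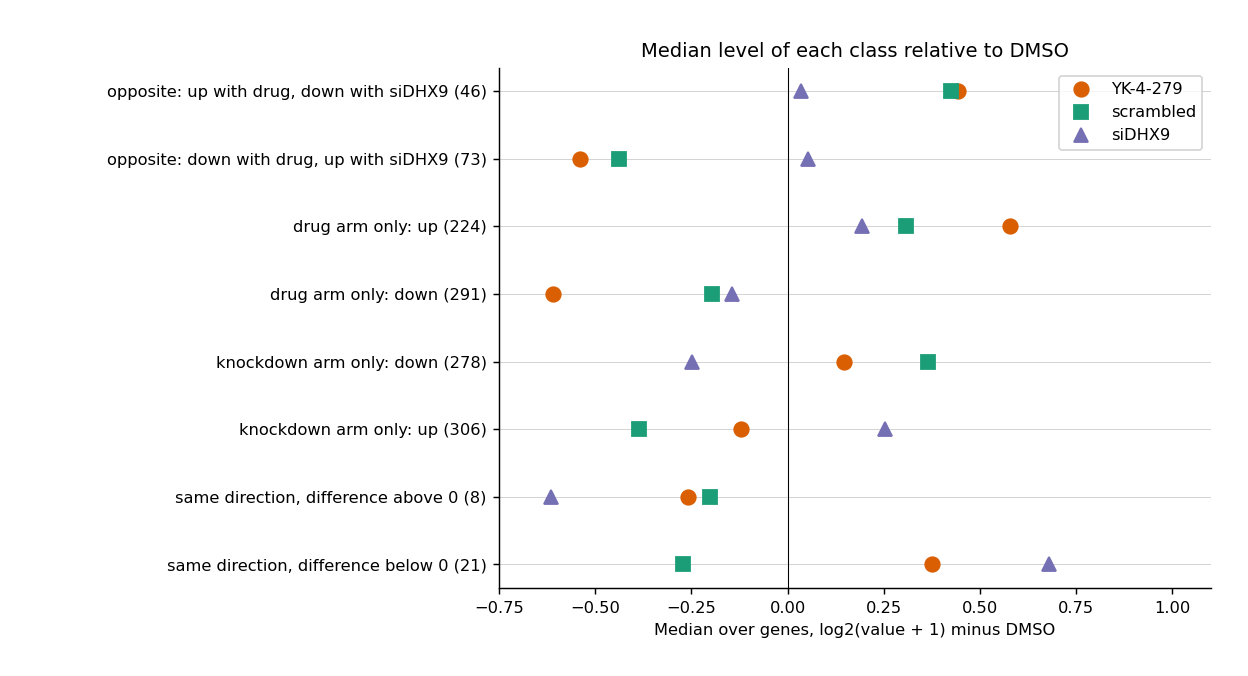
Median log2(value + 1) level of each class relative to DMSO, over the number of genes in brackets, for YK-4-279 (circles), scrambled (squares) and siDHX9 (triangles). In both opposite classes scrambled lies beside YK-4-279 (0.43 and 0.44, -0.44 and -0.54) and siDHX9 near 0, whereas in the drug-only classes YK-4-279 lies farthest from 0.

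The genes called in the drug arm only included cell cycle and DNA repair genes, which fell, and immediate early genes, which rose. The class means that the knockdown arm did not pass, and not that it was unchanged. The 95% interval of the log2 knockdown change stayed within ±0.5 in 141 of 224 that rose and 226 of 291 that fell. In 120 of the 224 that rose and 197 of the 291 that fell, the 3 YK-4-279 libraries lay beyond all 9 others, as they did in 1854 of all genes tested (13%). The class was chosen on these same libraries, so its larger share follows in part from that choice. CDK1 (chr10:62538089-62554608), the kinase that drives entry into mitosis, read 5303, 5028 and 5414 in DMSO, 1332, 1304 and 1446 with YK-4-279, 4957, 4378 and 5098 in scrambled and 4339, 4865 and 4668 in siDHX9 libraries. The drug libraries fell far below all others, and scrambled and siDHX9 overlapped. CDK1 fell 3.86-fold with the drug and changed by -0.06 ± 0.08 in the knockdown arm (adjusted p = 0.66), a difference of -1.89 ± 0.11 (limma adjusted p = 2.2e-06).

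UBE2C, which hands ubiquitin to targets of the anaphase-promoting complex, ranged over 15601 to 17346 (DMSO), 5332 to 6150 (YK-4-279), 13927 to 15977 (scrambled) and 13680 to 18808 (siDHX9). Its drug libraries were the lowest, and the other 3 groups overlapped. It fell by 1.53 on the log2 scale with the drug, with 0.11 ± 0.10 in the knockdown arm. FBXO5 (-1.33 and 0.11), the inhibitor of that complex also called EMI1, and E2F8 (-1.66 and -0.23), an atypical E2F repressor, also fell with the drug only. All 4 of these calls were kept in each of the 12 fits without a library.

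The 42 genes of G1/S and DNA replication measured had a median difference of -0.36, with medians of -0.46 in the drug arm and -0.06 in the knockdown arm. Of these genes 20 were called lower in the difference (47.6%, against 5.29% of all genes) and none higher. They included genes of origin licensing and firing (CDC6, ORC6, MCM4, MCM6, MCM10, CDC45, GINS1), polymerases and primase (POLA2, POLE, POLE2, PRIM1), nucleotide supply (RRM2, TYMS) and the E cyclins CCNE1 and CCNE2. CDC45 (-0.85 and -0.06) and RRM2 (-0.74 and 0.11), the small subunit of ribonucleotide reductase, show the usual pattern of a fall with the drug alone. CDC6 and the flap endonuclease FEN1 (-0.46 and 0.33) were opposite. In each of the 12 fits without a library 12 of the 20 were called, among them CDC6, CDC45, GINS1, MCM4, ORC6 and RRM2. The count was 12 without scrambled replicate 1 or YK-4-279 replicate 3, and 13 without DMSO replicate 2 or 3. CCNE2, which overlaps INTS8, lost its call of the difference without any 1 of 9 libraries, all except scrambled replicate 3 and siDHX9 replicates 2 and 3 (adjusted p = 0.0512 to 0.0833).

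The G2/M and mitosis list was divided: 13 of 53 members were called lower, 4 higher (32.1% together, against 9.69% of all genes). Besides CDK1, UBE2C and FBXO5, the lower members included the kinesins KIF11, KIF15 and KIF23, the kinetochore genes CENPF and NDC80 and the condensin subunits NCAPG and NCAPH. The higher members were the B cyclins CCNB1 and CCNB2, the securin gene PTTG1 and the spindle assembly factor TPX2. CCNB2 (0.20 and -0.45) and PTTG1 (0.26 and -0.30) were opposite, TPX2 fell with the knockdown only, and CCNB1 passed in neither arm. MKI67 (-0.75 and 0.22), a lower member, was opposite too. The opposite class held in 4 (CCNB2), 5 (PTTG1) and 2 (MKI67) of the 12 fits without a library. The differences of CDK1 and of its cyclin partners had opposite signs. Tested against its own control, the drug lowered 34 of the 53 (6.49% of all genes) and siDHX9 lowered 18 (7.97% of all genes). Without siDHX9 replicate 3 the counts were 21 lower and 8 higher, and without siDHX9 replicate 2 there were 7 higher.

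Of the homologous recombination and Fanconi anaemia genes, 9 of 27 were called lower (33.3%, against 5.29% of all genes) and none higher (median difference -0.46). FANCI (-0.98 and -0.11), a component of the clamp that marks crosslinked DNA, ranged over 5302 to 5716 (DMSO), 2674 to 2910 (YK-4-279), 5056 to 5289 (scrambled) and 4587 to 5188 (siDHX9); it overlaps POLG. RAD51AP1 (-1.05 and -0.26), an accessory factor of recombination, RBBP8 (-0.64 and 0.12), which starts DNA end resection, and BRCA2 (-0.86 and -0.22), a mediator of recombination, also fell with the drug and passed in that arm only. The count was 5 without DMSO replicate 3 or scrambled replicate 1. FANCI, RAD51AP1, RBBP8, EXO1 and BLM kept the call of the difference in all 12 fits without a library, while BRCA2 passed in 5 (highest adjusted p = 0.0761).

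Among the promoters that could be matched, a CCAAT box and a cell cycle homology region were each found in 10 of 14 called G2/M genes (71.4%) and an E2F site in 6 of 16 called G1/S genes (37.5%), against the shares of 34.6%, 16.4% and 1.15% over all promoters. A CCAAT box was also found in 9 of 16 called G1/S genes (56.2%) and 4 of 6 called ATF4 targets (66.7%), and an E2F site in 3 of 14 called G2/M genes (21.4%). The ATF4 composite site (TGATGNAAT) was found in 0 of the 6 called ATF4 targets and in 0.991% of all promoters. Called genes of both directions were pooled. Members that were not called were not counted, so these shares do not set the called genes apart from the rest of their lists.

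FOSB (chr19:45971253-45978437), an AP-1 subunit, read 41.03, 66.53 and 29.53 in DMSO, 485.3, 519.8 and 591.4 with YK-4-279, 40.57, 44.39 and 38.91 in scrambled and 33.11, 48.48 and 69.17 in siDHX9 libraries. The drug libraries stood alone, and the other 3 groups overlapped. FOSB rose 12-fold with the drug (difference 3.37 ± 0.41, limma adjusted p = 0.000299); it overlaps ERCC1.

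FOS, its close relative, read 734.9, 673.3 and 409.6 in DMSO, 3545, 3401 and 3937 with YK-4-279, 27.05, 32.37 and 40.9 in scrambled and 28.97, 39.33 and 32.42 in siDHX9 libraries. The drug libraries were the highest, and both transfected groups lay far below DMSO and overlapped each other. FOS rose 6.16-fold with the drug and changed by 0.01 ± 0.21 with the knockdown, while scrambled minus DMSO was -4.11.

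In all, 7 of 22 immediate early genes were called higher in the difference (31.8%, against 4.4% of all genes) and none lower (median 0.54). They were EGR1 as opposite, FOS, FOSB, FOSL1, IER2 and IER3 with the drug only, and ATF3 with the knockdown only. The median of the list was 0.71 in the drug arm and 0.03 in the knockdown arm. ATF3, a stress-induced factor of the ATF and CREB family, read 366.1, 340.3 and 64.84 in the scrambled libraries against 11.92 to 20.54 in DMSO, and its difference was not called without scrambled replicates 1 and 2 (adjusted p = 0.0949). IER3 overlaps TUBB. FOSL1 passed in the difference in 5 and IER3 in 8 of the 12 fits without a library (highest adjusted p = 0.09 and 0.0579), and the other 5 in all 12. Of 5 matched promoters of called members, 1 held a CArG box, that of EGR1 printed above.

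Further genes passed in the drug arm only. PYGM, the muscle glycogen phosphorylase, rose 3.93-fold, from 18.87 to 42.37 in DMSO to 121.1 to 125.9 with YK-4-279; scrambled (27.93 to 37.91) and siDHX9 (23.78 to 46.56) libraries overlapped DMSO. Its difference did not pass without scrambled replicates 1 and 2 (adjusted p = 0.146). CYR61, a matricellular target of YAP, rose by 1.05 and ZYX, the focal adhesion protein zyxin, by 0.87, while the YAP kinase LATS2 and its partner AJUBA fell in the knockdown arm only (-1.18 and -0.77). These 4 were the members of 20 actin, SRF and YAP targets called in the difference, all higher (20%, against 4.4% of all genes). The count was 2 without DMSO replicate 2 or 3 or YK-4-279 replicate 1. Tested against its own control, the drug raised 9 of the 20 (7.33% of all genes rose) and lowered none (median 0.51). With siDHX9 7 rose (8.75% of all genes did) and 2 fell (median 0.27), so most members called in that arm alone rose. CYR61 and AJUBA kept the call of the difference in all 12 fits without a library, whereas LATS2 passed in 7 (highest adjusted p = 0.0643) and ZYX in 4 (0.086), and ZYX rose in both arms without siDHX9 replicate 2 (knockdown adjusted p = 0.00631). BAG3, a co-chaperone, rose by 1.01, RCOR2, a corepressor partner of REST, by 0.87, and PIK3IP1, an inhibitor of PI3 kinase, by 1.37. The difference of BAG3 did not pass without YK-4-279 replicate 1 (adjusted p = 0.0526), and that of PIK3IP1 did not pass without DMSO replicate 1 or 2, YK-4-279 replicate 1 or scrambled replicate 1 (0.0507 to 0.0603). Neither passed without scrambled replicates 1 and 2 (0.101 and 0.199). The tubulin genes were divided: TUBA1C (-0.76) and TUBB (-0.51) fell with the drug alone, and TUBB4A was opposite (0.60 and -0.54). TUBA1C was opposite without siDHX9 replicate 2, and TUBB4A kept the opposite class in 7 of the 12 fits without a library. Tubulin genes have near-identical copies between which reads can be split.

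The genes called in the knockdown arm only included abundant genes that fell below every other library with siDHX9. Here too the other arm merely did not pass. The 95% interval of the log2 drug change stayed within ±0.5 in 162 of 278 that fell and 183 of 306 that rose. In 137 of the 278 that fell and 145 of the 306 that rose, the 3 siDHX9 libraries lay beyond all 9 others, as they did in 1059 of all genes tested (7.44%). Again the class was chosen on these same libraries, which raises its share. PSMD10, the proteasome assembly chaperone gankyrin, read 4820, 4597 and 4684 in DMSO, 4498, 4198 and 4471 with YK-4-279, 4112, 4096 and 4769 in scrambled and 1827, 1566 and 1514 in siDHX9 libraries. The siDHX9 libraries were far below all others, and the rest lay within 4096 to 4820. PSMD10 fell 2.65-fold with the knockdown (difference 1.30 ± 0.12, limma adjusted p = 7.14e-05). It was 1 of 3 called members of 37 proteasome genes, 8.11% against 9.69% of all genes tested. Of the 3, PSMD10 alone kept its call in each of the 12 fits without a library. The difference of PSMD3 (higher) passed in 1 of these fits and that of PSMG1 (lower) in 3 (highest adjusted p = 0.112 and 0.102).

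PDIA6, a disulfide isomerase of the endoplasmic reticulum, ranged over 23471 to 25454 (DMSO), 25950 to 26654 (YK-4-279), 22811 to 24045 (scrambled) and 13916 to 15192 (siDHX9). NDUFS1, a core subunit of respiratory complex I, read 7311 to 7966, 6979 to 7136, 8397 to 8969 and 4998 to 5446 in the same order. In each gene the siDHX9 libraries did not overlap any other group. PDIA6 fell by 0.68 and NDUFS1 by 0.73 on the log2 scale with siDHX9, and neither passed in the drug arm (0.10 and -0.11).

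Some neuronal genes were called lower in the difference, with a larger rise in the knockdown arm than in the drug arm. GNG4, a G protein gamma subunit, read 721.5, 747.8 and 793.5 in DMSO, 742.6, 726.9 and 727.4 with YK-4-279, 473.4, 368.1 and 434.9 in scrambled and 1702, 1282 and 1603 in siDHX9 libraries. The siDHX9 libraries were the highest of all and the scrambled libraries the lowest. GNG4 rose 3.58-fold with siDHX9 and changed by -0.04 ± 0.12 with the drug (difference -1.88 ± 0.17, limma adjusted p = 4.06e-05).

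SCN8A, a voltage-gated sodium channel, ranged over 459.6 to 502.5 (DMSO), 344.9 to 407.5 (YK-4-279), 413.9 to 423.5 (scrambled) and 879.8 to 1057 (siDHX9). Its siDHX9 libraries stood above all others and its YK-4-279 libraries below all others. It rose 2.35-fold with siDHX9, and its change of -0.32 with the drug did not pass (adjusted p = 0.057), though it did without siDHX9 replicate 2 (0.0449) or replicate 3 (0.0343).

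KCNK3, an acid-sensitive potassium leak channel, read 94, 105.3 and 115.6 in DMSO, 60.53, 136.7 and 135 with YK-4-279, 12.62, 24.04 and 15.96 in scrambled and 78.63, 73.18 and 97.27 in siDHX9 libraries. Only the scrambled libraries stood apart, and siDHX9 overlapped DMSO and YK-4-279. Its 4.65-fold rise with siDHX9 was measured from a control with a scrambled minus DMSO value of -2.56. PENK, the precursor of enkephalins, rose by 1.77, from scrambled libraries at 68.43 to 79.81 to siDHX9 libraries at 206.7 to 289.6, with DMSO at 192.6 to 213.4.

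Of 26 synapse and vesicle genes 7 were called lower and 1 higher, and 7 were lower in every fit without a library. UNC13A (-0.13 and 2.47), a priming factor of synaptic vesicles, SYT4 (-0.26 and 1.23), a synaptotagmin, BSN (0.42 and 2.03), the active zone scaffold bassoon, and RAB3C (0.72 and 2.67), a vesicle GTPase, passed with the knockdown only. BSN passed in both arms without YK-4-279 replicate 1. SV2A, a vesicle glycoprotein, went the other way and fell with siDHX9 (-0.43), with a difference that passed in 9 of the 12 fits without a library. Among 11 granin and secretory granule genes, SCG2 (0.19 and 1.06), CHGB (0.93 and 3.16) and CCK (0.16 and 1.15) were lower in the difference and the peptide-processing enzyme CPE (0.10 and -0.53) higher. Without DMSO replicate 1 or 3 there was 1 called lower. The difference of CCK passed in 3 of the 12 fits without a library (highest adjusted p = 0.117) and that of CHGB in 8 (0.0678), while SCG2 and CPE kept their calls in all 12, and CHGB was called in both arms without scrambled replicate 1 (drug adjusted p = 0.0377). Of 26 ion channels and transmitter receptors 5 were lower, GRIN2D, SCN8A, KCNK3 and CHRNB2 among them, and 3 were lower without DMSO replicate 2, YK-4-279 replicate 3, scrambled replicate 1 or siDHX9 replicate 1. Of 19 genes of neurofilaments and the neuronal cytoskeleton 5 were lower, among them INA (0.22 and 1.27), and 2 higher, PRPH and MAP1B; 2 or 3 were lower without any 1 DMSO or YK-4-279 library or scrambled replicate 1. Relative to DMSO, the mean of the synapse list was 0.26 in YK-4-279, -0.40 in scrambled and 0.43 in siDHX9 cells, that of the granin list 0.46, -0.58 and 0.61, that of the ion channel list 0.30, -0.41 and 0.29, and that of the neurofilament list 0.09, -0.01 and 0.15. In the synapse, granin and ion channel lists scrambled lay below DMSO, and YK-4-279 and siDHX9 above it. Of the synapse, granin, ion channel and neurofilament lists 30.8%, 36.4%, 19.2% and 36.8% were called in either direction, against 9.69% of all genes.

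The ATF4 list, targets of the integrated stress response, had 9 of 41 members called higher (21.95%, against 4.4% of all genes) and none lower. Of these, 8 passed with the knockdown only: INHBE, CHAC1, SESN2, STC2, JDP2, SLC7A1, CARS and YARS, with SLC7A5 opposite. The level of the list in single libraries was uneven. Relative to DMSO the list stood at 1.44, 1.22 and 0.44 in scrambled replicates 1, 2 and 3, at 0.23 to 0.24 in siDHX9 and at -0.09 to 0.00 in YK-4-279 libraries. CHAC1, which degrades glutathione, read 5052, 8311 and 720.2 in scrambled libraries, against 131.3 to 358.2 (DMSO), 188.1 to 378 (YK-4-279) and 158.2 to 565.9 (siDHX9). STC2, a secreted glycoprotein, read 1224, 848.9 and 372.1 in scrambled libraries, against 181.1 to 265.9 in the other 9. The scrambled libraries were the high ones in both genes. CHAC1 had a difference of 3.46 (limma adjusted p = 0.0475) that was lost without any 1 library except scrambled replicate 3 and siDHX9 replicate 3 (adjusted p = 0.0573 to 0.111). The list's count was 26 without scrambled replicate 3, 2 to 5 without any 1 DMSO or YK-4-279 library, 3 without scrambled replicate 1 or 2 or siDHX9 replicate 1, and 1 without scrambled replicates 1 and 2. YARS and SLC7A5 were the 2 members called in each of the 12 fits without a library.

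**Figure D4:**
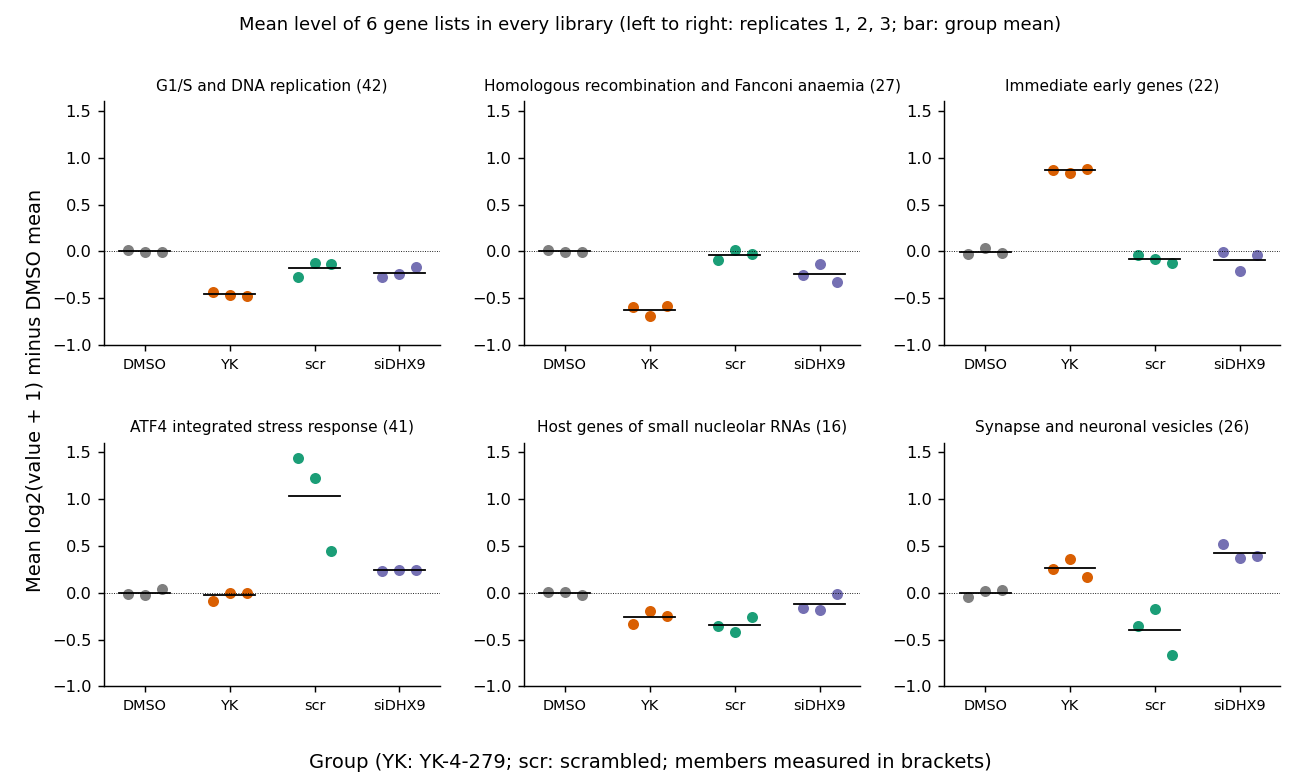
Mean log2(value + 1) level of 6 gene lists in every library relative to the DMSO mean, with replicates 1, 2 and 3 from left to right, bars for group means and the number of genes in brackets. The replication, repair and immediate early lists stand apart in the 3 YK-4-279 (YK) libraries, while the ATF4 list is raised in scrambled (scr) replicates 1 and 2, at 1.44 and 1.22.

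Of 15 ERK pathway feedback genes 3 were called higher in the difference (20%, against 4.4% of all genes). They were DUSP6, SPRY2 and SPRY4, each with a fall in the knockdown arm only. In the whole list 3 members rose and none fell with the drug (median 0.51), while 3 fell and 2 rose with siDHX9 (median 0.18). Over all genes 7.33% rose with the drug, and 7.97% fell and 8.75% rose with siDHX9. Relative to DMSO the mean of the list was 0.49 in YK-4-279, 0.02 in scrambled and 0.01 in siDHX9 cells. In the knockdown arm DUSP6, a phosphatase of ERK, changed by -0.84. SPRY2 (-0.87) and SPRY4 (-0.85), both inhibitors of receptor tyrosine kinase signalling, fell likewise. The drug changes of the 3 genes, 0.34, 0.14 and 0.58, did not pass. The difference of SPRY4 passed in 5 of the 12 fits without a library (highest adjusted p = 0.0717), and without DMSO replicate 3 it was opposite (drug adjusted p = 0.0326). The list's count was 5 without scrambled replicate 3. DUSP6 read 2214, 1412 and 1700 in scrambled libraries, with siDHX9 at 796.5 to 1151 and DMSO at 939.9 to 1023, so that siDHX9 overlapped DMSO. SPRY2 read 257.2 to 305.5 in siDHX9 libraries and at least 360.4 in all others.

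The genes with responses of the same sign but unequal size included neuronal genes that rose more with the knockdown and histone genes that rose more with the drug. SYP, the synaptic vesicle protein synaptophysin, read 67.15, 93.35 and 124.5 in DMSO, 170.8, 178 and 193.4 with YK-4-279, 31.56, 30.52 and 29.93 in scrambled and 255.5, 209.5 and 282.1 in siDHX9 libraries. Every group stood apart from the others, with scrambled lowest and siDHX9 highest. SYP rose 1.95-fold with the drug and 7.84-fold with the knockdown (difference -2.01 ± 0.29, limma adjusted p = 0.00128).

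CHRNB2, a nicotinic receptor subunit, rose by 1.70 and 3.46, and AP3B2, the neuronal AP-3 adaptor subunit, by 0.49 and 2.56. The drug call of AP3B2 was lost without any 1 DMSO library or YK-4-279 replicate 1 or 2 (adjusted p = 0.0936 to 0.157). NEFM, the medium neurofilament chain, rose by 0.39 and 1.21, with a drug call lost without DMSO replicate 2 or 3 or any 1 YK-4-279 library (adjusted p = 0.0642 to 0.123). MAP1B, a microtubule-associated protein, fell in both arms (-0.80 and -1.60).

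HIST1H2BD, a histone H2B gene that also gives a polyadenylated transcript, read 456.6, 565 and 570.1 in DMSO, 1893, 1725 and 1893 with YK-4-279, 319.2, 354.2 and 357.1 in scrambled and 576.2, 501.3 and 611.7 in siDHX9 libraries. The drug libraries were the highest, and siDHX9 overlapped DMSO. It rose by 1.80 and 0.71. HIST1H2BK (1.31 and 0.63) and HIST3H2A (1.08 and 0.47) rose in both arms too, but the difference of HIST1H2BK passed in 9 of the 12 fits without a library (highest adjusted p = 0.0558) and that of HIST3H2A in 1 (0.106). Of 14 histone genes 4 were called higher and 1 lower, the entry of H3F3A with H3F3AP4 (-0.45 and 0.04). Together they make 35.7%, against 9.69% of all genes. With the drug 4 of the 14 rose and 3 fell (7.33% and 6.49% of all genes), with a median of -0.19 in that arm. The higher count was 2 without DMSO replicate 1 or 2 or YK-4-279 replicate 2, and histone genes have near-identical copies. MTFR2, a regulator of mitochondrial fission, fell by 1.47 and 0.46 on the log2 scale.

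The genes of the fusion itself did not pass: EWSR1 had a difference of 0.12 (limma adjusted p = 0.522) and FLI1 of 0.26 (0.631), and these entries do not tell the fusion from the normal alleles. Of 41 genes listed as activated by EWS-FLI1, 8 were called lower (19.5%, against 5.29% of all genes) and none higher (median -0.09). They were divided by arm: VRK1, RBM11 and EZH2 fell with the drug only, while BCL11B (0.79), KCNAB3 (0.85), CCK (1.15) and NR0B1 (0.30) rose with the knockdown only and TERT passed in neither arm. NR0B1, an orphan nuclear receptor directly induced by the fusion, read 6206 to 7226 in the other 9 libraries and 8085 to 8764 in siDHX9 libraries, which lay above all of them. Its difference was nevertheless not called without any 1 DMSO library, YK-4-279 replicate 1 or 3, scrambled replicate 2 or siDHX9 replicate 1 (adjusted p = 0.0563 to 0.0946). VRK1, BCL11B, KCNAB3, RBM11 and EZH2 kept the call in all 12 fits without a library, CCK and TERT did not. CCND1, another direct target, rose by 0.47 with the drug, and its difference of 0.39 missed the threshold (adjusted p = 0.0608). Of 29 repressed targets 4 were higher (13.8%, against 4.4% of all genes). CYR61, ZYX and IER3 passed with the drug only and FN1 with the knockdown only (-0.54). CYR61 was the 1 that kept its call in all 12 such fits. Tested against its own control, the drug raised 11 of the 29 (7.33% of all genes rose) and lowered none (median 0.32). With siDHX9 8 rose (8.75% of all genes did) and 1 fell (median 0.26). Members called in either single arm thus mostly rose in it. The counts were 5 activated targets without DMSO replicate 2 or 3 or YK-4-279 replicate 3, and 1 or 2 repressed targets without any 1 DMSO library, YK-4-279 replicate 1 or 3 or scrambled replicate 1.

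Of 56 cytosolic ribosomal protein genes 3 were called lower, RPS27, RPL31 and RPL10. That share of 5.36% was near the 5.29% called lower over all genes, although 28 rose with siDHX9 (8.75% of all genes did). RPS27 was the 1 called in each of the 12 fits without a library. The count was 1 without any 1 DMSO library, YK-4-279 replicate 1 or 3 or scrambled replicate 1 or 2, 6 without scrambled replicate 3 and 8 without siDHX9 replicate 2, and ribosomal protein genes have near-identical copies. Of 34 splicing factors 5 were called lower and 1 higher (17.65%, against 9.69% of all genes). HNRNPDL, which fell by 0.55 on the log2 scale with the drug only, was the 1 of the 6 that kept its call in all 12 fits. That lower count was 1 or 2 without any 1 DMSO or YK-4-279 library, scrambled replicate 1 or siDHX9 replicate 1, and leaving out scrambled replicate 2 gave 3, scrambled replicate 3 gave 9. Among the DDX and DHX helicases other than DHX9 and the interferon-stimulated genes, 1 gene each was called, DHX8 of 47 and ISG15 of 26. These shares, 2.13% and 3.85%, lay below the 9.69% over all genes. The difference of DHX8 passed in 2 of the 12 fits without a library and that of ISG15 in 6 (highest adjusted p = 0.118 and 0.071).

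**Figure D5:**
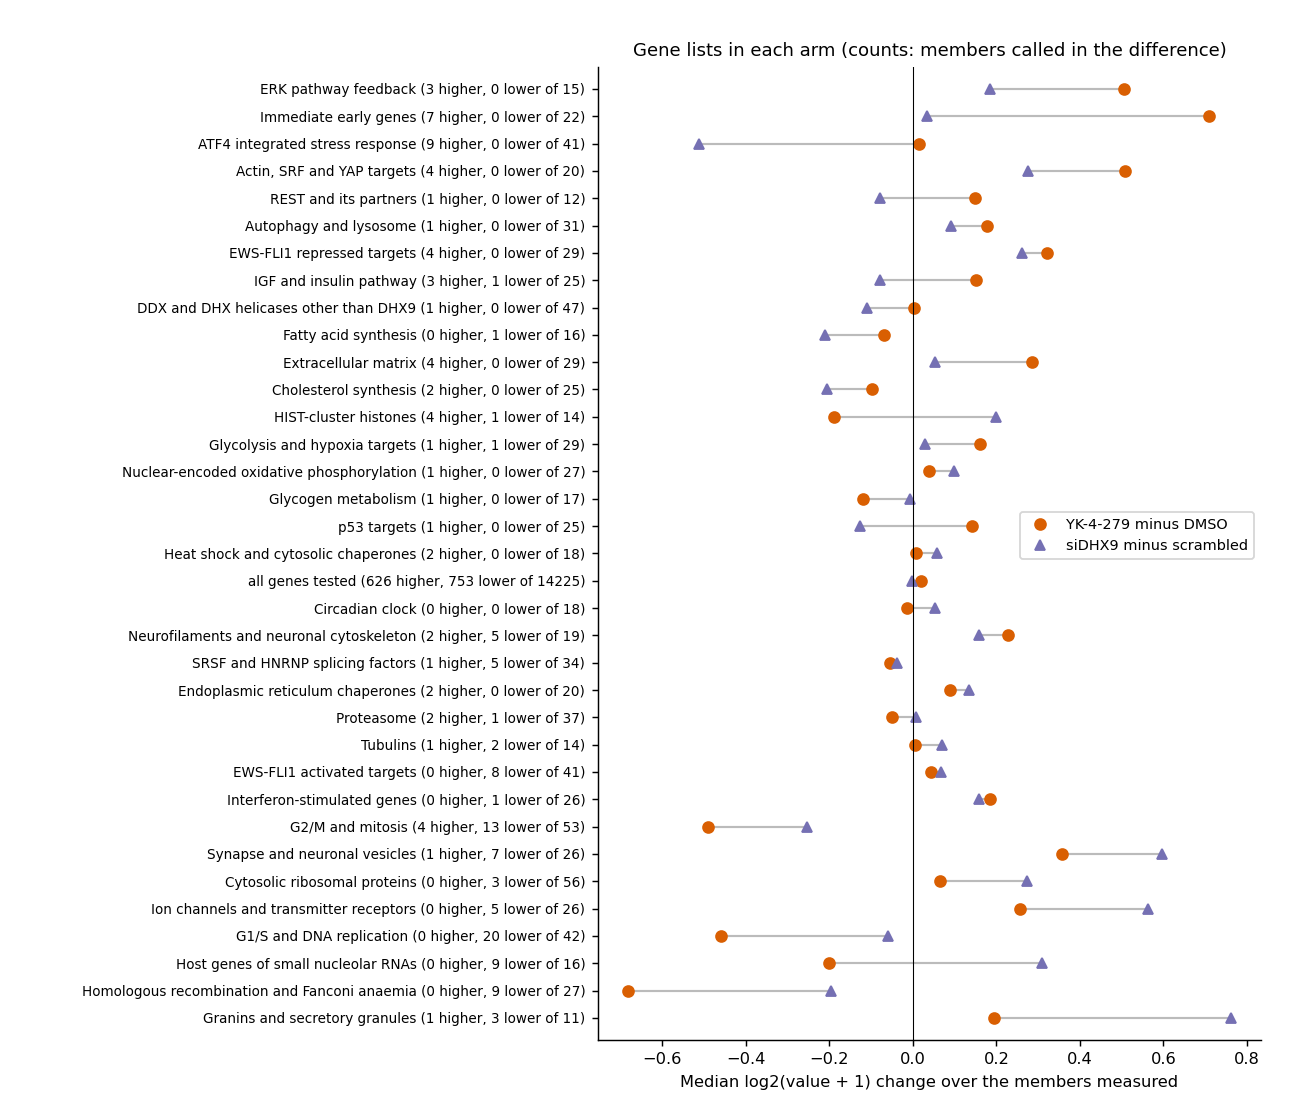
Median log2(value + 1) change over the measured members of each gene list in the drug arm (circles) and the knockdown arm (triangles), ordered by the median difference, with counts of members called in the difference beside each name. The ERK feedback and immediate early lists lie at the top, the recombination, replication and granin lists near the bottom, and the replication list has medians of -0.46 and -0.06.

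At the threshold, ANKRD18B was the last gene inside (difference -0.52, adjusted p = 0.0499), and the entry of HIRA with C22orf39 the first outside (0.40, adjusted p = 0.0501).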

How the data were processed

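RNA was sequenced from 12 TC-71 libraries. The authors deposited 1 table of signal values, which per the file headers are gene counts normalised with DESeq size factors, annotated with FASTDB. Per the submitters' processing notes the build was hg19 and the tools were FastQC, STAR 2.4.0, Picard, SAMtools and DESeq; for the counter and its use of strand the sources used here give nothing. Whole reads, recovered within 0.1 from the smallest step of each column, served for depth, edgeR and DESeq2; depth bounds counting error only.

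Genes with a symbol and a mean of at least 10 were fitted on log2(value + 1) in limma 3.58.1 under R 4.3.3, each group having its own mean, with a trend of variance on mean (residual degrees of freedom: 8). Folds on this scale understate changes of low genes. An adjusted p under 0.05 counted as a call in each contrast. Of the genes tested, 591 are entries naming several genes.

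The comparison and the 34 gene lists were chosen with earlier results of these data known. Described genes followed a rule: single-gene entries called in the difference whose highest group averaged at least 100, being the 6 largest opposite differences per direction, the 5 largest per direction in each single-arm class (other arm under 0.3, no overlap of libraries), the 3 largest of the same direction in each arm, up to 3 per list, and 10 fixed genes. Other called members of a list are given with its counts. Some called members are not reported here. Of the 104 genes so chosen, 27 overlap another expressed gene, which makes their values uncertain where reads were shared. Alternatives were the added value, the minimum, TMM and quantile scaling, edgeR 4.0.16, DESeq2 1.42.0, array weights, a replicate block, and leaving out libraries. The fit was also run on simulated data with equal spread in all groups and no shift between the controls. That run therefore does not bear on the unequal spread or the control shift of the real libraries.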

Additional observations from a re-analysis of the deposited data

Results flagged for a closer look

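Table entries without a gene symbol were not part of the comparison. Of 3172 such entries that passed the same minimum, 239 were called in the same difference of effects (7.53%, limma, Benjamini-Hochberg over these entries), so that a signal was present in data outside the main measurement. They leaned to one side: 77.8% lay lower after the drug than after the knockdown, against 54.6% of the called genes with a symbol. By class, 119 moved in the drug arm only, 67 in the knockdown arm only and 15 in opposite directions. What these entries are was not tested.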

How the results depend on the processing

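The calls of the difference (626 higher, 753 lower; 119 opposite, 515 drug arm only, 584 knockdown arm only) stayed within 1.5 times of these counts with another added value, minimum, TMM or quantile scaling and in edgeR. DESeq2 called 971 higher, 182 opposite and 903 knockdown only. Array weights, whose fit stopped before its convergence tolerance, gave 1754 higher, 1723 lower, 416 opposite, 1303 drug only and 1371 knockdown only. Without scrambled replicates 1 and 2 together the counts were 150, 290, 20, 225 and 145 in the same order. Leaving out 1 library at a time gave 315 to 917 higher, 436 to 1008 lower, 45 to 179 opposite, 268 to 915 drug only and 339 to 892 knockdown only. The 915 came without siDHX9 replicate 3, the 892 and 882 knockdown-only calls without scrambled replicate 3 and siDHX9 replicate 2, and the cause of these shifts was not tested. Over the described genes and settings, 2045 values kept direction and side of the threshold, 342 lost the call, 4 gained it and none reversed.

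Replicate numbers did not pair the libraries (correlations of same-numbered deviations from -0.249 to 0.12). With the replicate block the counts were 500 higher, 618 lower, 77 opposite, 407 drug only and 506 knockdown only.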
